A study of Mus musculus with 8 samples.

Results

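Axon guidance ligands and receptors were followed in lymphatic endothelial cells from resting and inflamed mouse ear skin. Members were the genes of the semaphorin, plexin, Eph, ephrin, Slit, Robo, Unc5 and netrin families, taken by gene symbol from probe sets that name exactly 1 gene. The symbols gave 69 genes of the 18193 named on the array, measured by 148 of 34945 such probe sets. They comprised 20 semaphorins, 10 plexins, 13 Eph receptors, 8 ephrins, 3 Slits, 4 Robos, 5 Unc5 genes and 6 netrins. Of these, Plxna4os1, an antisense transcript at the plexin A4 locus, and Unc5cl, a death domain protein related to Unc5 receptors, matched by name only.

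All samples came from female FVB mice aged 8 to 10 weeks, and each was a pool of cells from 3 mice. Cells were sorted from digested ears as CD31 and podoplanin positive and CD45 negative. The 4 inflamed samples came from mice sensitised on abdomen and paws with 2% oxazolone, a contact allergen, followed after 5 days by a challenge on the ears, where both sides received 10 µl at 1%. Ears were collected 24 hours afterwards. The 4 untreated samples came from mice labelled healthy and untreated, so that vehicle, sensitisation and challenge cannot be told apart in the comparison. An untreated and an inflamed sample sorted and extracted on 1 day form each of the 4 pairs, which the submitters chose by the quality of the RNA and amplified material. The comparison asks which transcripts of lymphatic endothelial cells are altered by contact hypersensitivity.

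Axon guidance proteins were first known for steering growing nerve fibres, and the same ligands and receptors act on endothelial cells. Semaphorins bind plexins, and the secreted class 3 members do so mostly together with neuropilins. Ephrins are membrane-bound ligands of the Eph receptor tyrosine kinases and signal into both cells that touch. Netrins bind Unc5 receptors, Dcc and neogenin, and Slits bind Robos. In lymphatic vessels, ephrin B2, EphB4 and semaphorin 3A are known for their part in valves and collecting vessels.

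Values are log2 of the deposited array signal, and a difference is inflamed minus untreated, averaged over the 4 pairs with its standard error (SE) from limma. A gene passed at a Benjamini-Hochberg adjusted p under 0.05 over all 10843 genes tested. All adjusted p-values below come from that limma fit unless another is named. A background ceiling was set for each array from bacterial control probe sets, at 2.53 to 3.31 on the log2 scale, and a value under it is no measured level. Markers of the sort were as follows. The genes Prox1, Lyve1, Flt4, Pecam1 and Pdpn were above the ceiling on all 8 arrays, and the leukocyte gene Ptprc, which encodes CD45, on 0 of 4 untreated and 3 of 4 inflamed arrays. The 9 pan-endothelial markers had a mean log2 level of 9.28 to 10.19 on untreated and 8.40 to 9.38 on inflamed arrays, and a summed signal of 7849 to 12310 and 5029 to 9928. Of the 9, 3 passed as lower and 0 as higher, as did 3 and 0 of the 8 tested lymphatic markers. Markers within a list did not all move together. Of the pan-endothelial ones 7 had negative and 2 positive differences, from -2.18 for Tie1 to 0.50 for Cdh5. Of the lymphatic ones 7 had negative differences and 1, Pdpn, a positive one (0.56, higher in all 4 pairs). The 3 tested neutrophil markers of 9 listed all passed as higher, at a mean of 4.07 in untreated and 9.45 in inflamed samples. Of these, S100a8 and S100a9 were above the ceiling on 1 of 4 untreated arrays and were tested only through their inflamed signal. Mpo and Elane, too dim to be tested, were above it on 1 and 2 untreated and 1 and 0 inflamed arrays. Csf3r and Cxcr2, also untested, were above it on 0 untreated and on 2 and 3 inflamed arrays. Keratinocyte markers averaged 8.08 and 3.81, with 3 of 4 tested passing as lower (Krt5, Krt10 and Krt2). Of these, Krt10 and Krt2 were above the ceiling on 1 and 0 of 4 inflamed arrays and were tested only through their untreated signal. On inflamed arrays 3 and 4 the keratinocyte mean was 2.29, under the ceiling. Krt1, Krtdap and Lor, untested, were above it on 0, 3 and 2 untreated and 1, 0 and 2 inflamed arrays. Fibroblast markers averaged 8.52 and 9.32, with 1 of 8 passing as higher. The log2 ratio of the 3′ to the 5′ Gapdh control, a sign of RNA quality, was 3.40 to 4.16 on untreated and 2.58 to 3.30 on inflamed arrays. The same ratio of the Actb control overlapped between the groups, at -0.15 to -0.001 on untreated and -0.12 to -0.01 on inflamed arrays. The part of these other cells and of RNA quality in the results below was not tested. In sorted pools such as these, fewer cells of a type and less RNA per cell cannot be told apart.

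In inflamed skin the semaphorins Sema3a and Sema7a rose, and the ephrin Efnb2 and the netrin Ntn1 fell. These 4 were the members that passed among the 41 bright enough to be tested. Higher members were 2 of 41 (4.88%) against 3.91% of all genes tested, and lower members 2 of 41 (4.88%) against 3.02%. The share of members that passed was thus near the background in both directions, with 9.76% against 6.94% over both. The median difference was -0.015 over the 41 members and -0.09 over all genes. At an unadjusted p under 0.05, 5 members were higher and 8 lower (12.2% and 19.5%), against 10.5% and 11.5% of all genes. Signals of the 2 groups did not overlap for 8 of the 41 members (19.5%), against 13.1% of all genes. Of these, 3 were higher (Sema7a, Efna5 and Plxnb2) and 5 lower (Efnb2, Efna1, Ntn4, Ephb1 and Sema4d), against 6.3% and 6.84% of all genes. In all 4 pairs 6 members were higher and 11 lower, against 13.6% and 15.5% of all genes.

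**Figure D1:**
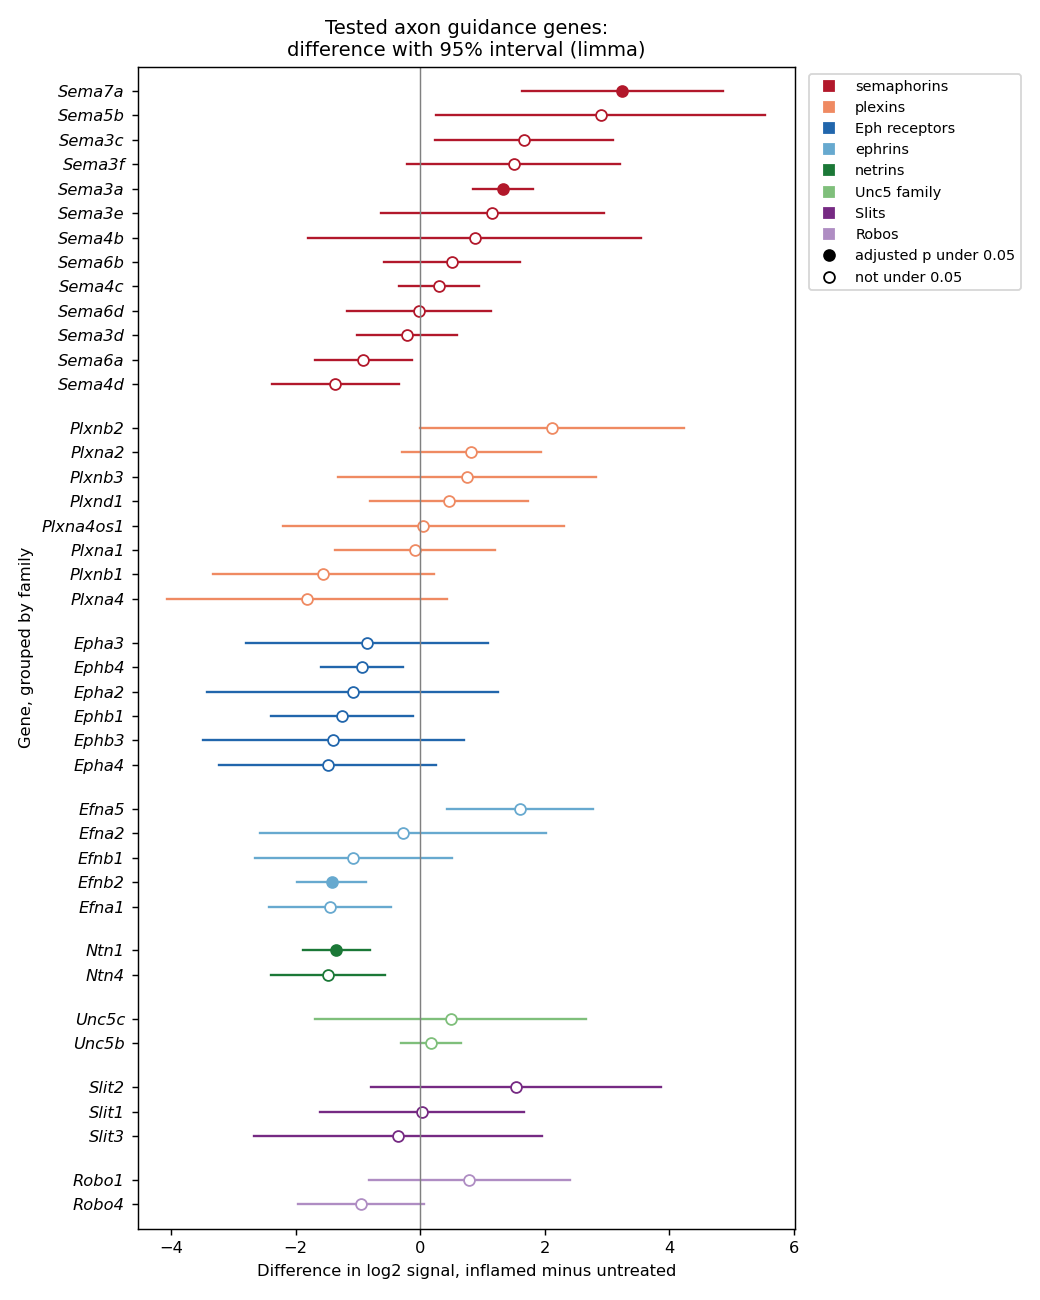
Difference in log2 signal, inflamed minus untreated, for the 41 tested axon guidance genes, grouped by family, with the 95% interval of the limma fit (n = 4 pairs). Filled points mark the 4 genes with an adjusted p under 0.05. All 6 tested Eph receptors and both tested netrins lie left of 0, although another probe set of Epha3 gives 0.45. Of all 10843 genes tested, 5831 had a negative difference.

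Promoters of Sema3a and Sema7a, which rose, and of Efnb2, which fell, are shown so that they can be compared letter by letter. RefSeq promoters on GRCm38.p6 matched 59 of the 69 members (75 start sites), Sema3a, Sema7a and Efnb2 among them. Ntn1, which also fell, had no matching promoter and is not shown. The 250 bases before each start are given 5′ to 3′ on the gene's strand, with capitals where a searched motif matched on either strand. Sema3a lies at chr5:13396534-13396783 on the plus strand, Sema7a at chr9:57939862-57940111 on the plus strand and Efnb2 at chr8:8661243-8661492 on the minus strand.
Sema3a: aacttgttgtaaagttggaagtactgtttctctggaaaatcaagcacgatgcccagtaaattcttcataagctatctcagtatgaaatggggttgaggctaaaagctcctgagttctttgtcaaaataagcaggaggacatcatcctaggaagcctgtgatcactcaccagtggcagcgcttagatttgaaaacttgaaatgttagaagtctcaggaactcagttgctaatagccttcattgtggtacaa
Sema7a: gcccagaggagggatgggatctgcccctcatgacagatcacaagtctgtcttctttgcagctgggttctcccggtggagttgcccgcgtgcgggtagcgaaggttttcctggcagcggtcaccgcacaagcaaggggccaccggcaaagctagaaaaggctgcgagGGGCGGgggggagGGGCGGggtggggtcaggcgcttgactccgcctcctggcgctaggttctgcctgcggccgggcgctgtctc
Efnb2: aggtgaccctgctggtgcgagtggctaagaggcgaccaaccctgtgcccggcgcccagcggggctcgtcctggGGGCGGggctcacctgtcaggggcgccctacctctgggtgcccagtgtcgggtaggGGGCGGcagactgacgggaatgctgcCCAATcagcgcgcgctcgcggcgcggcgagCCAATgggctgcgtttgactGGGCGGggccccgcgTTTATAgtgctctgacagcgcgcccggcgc

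Motifs were searched on both strands. The GC box was searched as GGGCGG, the CCAAT box by its own letters and the TATA box as TATAAA. AP-1 sites were searched as TGANTCA, sites bound by STAT factors (GAS) as TTCNNNGAA, those of the Notch effector RBPJ as TGGGAA, and those of HIF as ACGTG. NF-kB and interferon response (ISRE) elements were each searched by a single narrow pattern with few free positions. Other forms of these sites were not counted. Motifs may overlap one another. The Efnb2 window held 3 GC boxes, 2 CCAAT boxes and, on the other strand, a TATA box whose match began 30 bases before the start. The Sema7a window held 2 GC boxes, and in the Sema3a window these letters were not found. The GC content was 72% for Efnb2, 66.4% for Sema7a and 40.8% for Sema3a. A GC box stood in 53 of 75 member promoters (70.7%) and in 32.7% of all 32851, beside a median GC content of 64% against 52.4%. A TATA box stood in 2 of 75 (2.67%) against 12.4% of all, AP-1 in 3 (4%) against 6.75%, and GAS in 2 (2.67%) against 7.02%. The ISRE pattern stood in 2 (2.67%) against 2.98%, and the NF-kB pattern in 0 against 0.356%. The latter does not show that NF-kB sites of other forms were absent. CCAAT stood in 28% of member promoters against 33.8%, RBPJ letters in 17.3% against 21.6% and HIF letters in 16% against 16.6%. These are matches of letters and show no binding.

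Semaphorins held the members that rose. Sema3a encodes a secreted semaphorin that binds neuropilin 1 and A-type plexins. Its log2 signal was 8.70, 10.30, 9.74 and 9.64 on untreated arrays 1 to 4, and 10.10, 11.08, 11.42 and 11.12 on inflamed arrays 1 to 4. It was higher in all 4 pairs, and the groups overlapped because untreated array 2 lay above inflamed array 1. Sema3a rose by 1.33 ± 0.22 (SE, n = 4 pairs; adjusted p = 0.0074), a 2.52-fold difference. Its other 2 probe sets gave 1.26 ± 0.39 and 1.72 ± 0.50 when fitted singly, neither of which passed (adjusted p = 0.0981 and 0.082). The call of Sema3a ended without pair 3, without the intensity trend of the fit and with the probe set of widest spread.

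Sema7a encodes a semaphorin held on the membrane by a lipid anchor, known to act on leukocytes and to bind plexin C1 and integrin β1. Its log2 signal was 7.03, 6.52, 5.10 and 3.86 on untreated arrays and 8.36, 9.09, 8.11 and 9.94 on inflamed arrays. All 4 inflamed arrays lay above all 4 untreated arrays, and pair 4 showed the widest gap. Sema7a rose by 3.25 ± 0.72 (adjusted p = 0.0284), a 9.5-fold difference. Its other probe set had 1 of 4 untreated and 4 of 4 inflamed arrays above the ceiling, so that its untreated level was mostly not measured, and it did not pass (adjusted p = 0.0844). The call of Sema7a ended without pair 2, 3 or 4, at adjusted p = 0.0716, 0.103 and 0.0594, and without pair 4 the difference was 2.31. Beside it, the mean log2 level of the tested pan-leukocyte markers was 3.31 to 5.39 on untreated and 6.59 to 9.95 on inflamed arrays. Of these, 1 of 3 passed as higher, Cd53. It was above the ceiling on 0 of 4 untreated and 4 of 4 inflamed arrays and was tested only through its inflamed signal. Coro1a and Laptm5 differed by 2.77 ± 0.87 and 0.38 ± 0.93 without passing (adjusted p = 0.0965 and 0.863). The part of leukocyte transcripts in the Sema7a result was not tested.

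Of 13 tested semaphorins, 2 rose and 0 fell, against 3.91% and 3.02% of all genes, with a median difference of 0.87. At an unadjusted p under 0.05, 4 were higher and 2 lower, beside the 10.5% and 11.5% of all genes. Sema3c, a secreted class 3 member, was higher in all 4 pairs, at 6.02, 4.09, 4.29 and 5.57 on untreated and 7.86, 5.71, 7.08 and 5.998 on inflamed arrays, and did not pass (1.67 ± 0.64, adjusted p = 0.16). Sema3f, which acts chiefly through neuropilin 2, differed by 1.50 ± 0.76, with 3 of 4 pairs higher. Sema5b, a semaphorin with thrombospondin repeats, was 0.41, 4.06, 1.12 and 5.04 on untreated and 7.52, 4.74, 5.00 and 4.99 on inflamed arrays. It differed by 2.90 ± 1.17 (adjusted p = 0.186), and untreated arrays 1 and 3 lay under the ceiling. Sema3e, the ligand of plexin D1, was above the ceiling on 2 of 4 arrays in each group.

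Some semaphorins had negative differences. Sema4d, known as a ligand of plexin B1, was 7.06, 8.38, 7.74 and 7.96 on untreated arrays and 5.54, 6.93, 6.71 and 6.50 on inflamed arrays. Every inflamed value lay under every untreated one, but the gene did not pass (-1.37 ± 0.45, adjusted p = 0.114). Sema6a, a transmembrane member that binds A-type plexins, was lower in all 4 pairs without passing (-0.91 ± 0.35, adjusted p = 0.161). Its 3 probe sets differed in size, at -0.07, -0.91 and -1.75, and the last passed when fitted singly (adjusted p = 0.0483).

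Other semaphorins had small differences or wide intervals. Sema4c was 9.81, 9.49, 8.95 and 9.38 on untreated and 9.57, 9.30, 9.73 and 10.23 on inflamed arrays, with an interval of the difference from -0.35 to 0.94. Sema3d was 8.88 ± 0.38 in untreated and 8.66 ± 0.97 in inflamed samples (SD, n = 4), with an interval from -1.02 to 0.59. Sema6d was 6.59 ± 0.54 and 6.57 ± 0.35, with an interval from -1.17 to 1.14. Sema6b and Sema4b had wide intervals of -0.59 to 1.60 and -1.81 to 3.55. Sema4b reached 8.92 on inflamed array 3 and 1.48, under the ceiling, on inflamed array 4.

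**Figure D2:**
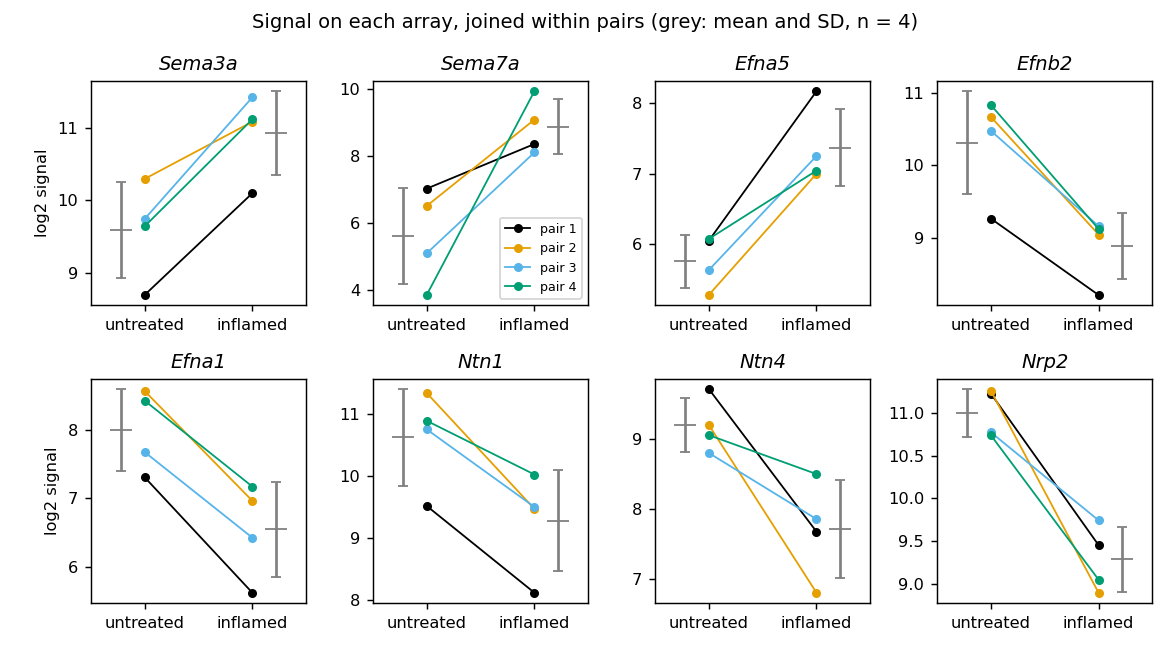
Log2 signal on each array for 7 axon guidance genes and the co-receptor gene Nrp2. Lines join the untreated and inflamed array of a pair, and grey bars are the group mean and SD (n = 4). Lines run up in all 4 pairs for Sema3a, Sema7a and Efna5, and down in all 4 pairs for the other 5 genes.

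Plexins, the semaphorin receptors, gave 0 of 8 tested members that passed in either direction in limma, against 6.94% of all genes. At an unadjusted p under 0.05, 0 were higher and 0 lower, against 10.5% and 11.5% of all genes. Plxnb2 was 4.92, 0.12, 4.43 and 4.57 on untreated and 5.86, 5.68, 5.41 and 5.54 on inflamed arrays. The inflamed values lay above all untreated ones, and the size of the difference (2.11 ± 0.94, adjusted p = 0.229) rested largely on untreated array 2, which was under the ceiling. Plxnb1, the receptor of Sema4d, was lower in all 4 pairs at 5.80, 4.55, 4.00 and 5.05 on untreated and 2.92, 4.25, 1.73 and 4.28 on inflamed arrays, with inflamed arrays 1 and 3 under the ceiling. It did not pass (-1.56 ± 0.79, adjusted p = 0.295). Plxnd1, a plexin known from endothelium, was 6.08 ± 0.78 and 6.54 ± 0.31. Plxna1, a receptor of class 3 semaphorins, was 5.89 ± 0.88 and 5.81 ± 0.89, and its interval ran from -1.37 to 1.21. Plxna2, the relative of Plxna1, was 7.56, 7.33, 8.07 and 5.74 on untreated and 6.95, 9.20, 9.12 and 6.72 on inflamed arrays. It differed by 0.82 ± 0.50, but of its 4 probe sets 2 gave positive and 2 negative differences. Plxna4 lay between 4.65 and 7.61 on untreated arrays and at -0.13, 7.08, 3.98 and 6.89 on inflamed ones, with pairs going both ways. Plxnb3 was above the ceiling on 2 of 4 untreated and 3 of 4 inflamed arrays. Plxna4os1 was 4.03 ± 1.43 and 4.08 ± 1.50. Plxnc1, the plexin that binds Sema7a, and Plxna3 fell under the brightness filter. The brightest of the 6 Plxnc1 probe sets was above the ceiling on 2 of 4 untreated and 1 of 4 inflamed arrays.

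Among ephrins, Efnb2 fell. It encodes ephrin B2, a transmembrane ligand of EphB4 that also signals into the cell that carries it. Its log2 signal was 9.27, 10.67, 10.48 and 10.83 on untreated arrays and 8.21, 9.05, 9.16 and 9.12 on inflamed arrays. The groups did not overlap, and both arrays of pair 1 were the lowest of their group. Efnb2, whose window shown above held GC, CCAAT and TATA boxes, fell by 1.42 on the log2 scale (SE 0.24, n = 4 pairs, adjusted p = 0.0094). All 4 of its probe sets had negative differences, -1.42, -1.60, -1.76 and -2.14, of which the first 3 passed when fitted singly and the last did not (adjusted p = 0.1). The call ended without pair 3 (adjusted p = 0.0564).

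Efna1 and Efna5, ligands of EphA receptors held by a lipid anchor, differed in opposite directions and did not pass. Efna1 was 7.31, 8.56, 7.67 and 8.42 on untreated arrays and 5.62, 6.96, 6.43 and 7.17 on inflamed arrays. Its groups did not overlap (-1.45 ± 0.44, adjusted p = 0.0861), and it passed when the mean of its probe sets was used (-1.80, adjusted p = 0.0288). Efna5 was 6.05, 5.28, 5.63 and 6.08 on untreated and 8.17, 7.0, 7.25 and 7.05 on inflamed arrays. Again no inflamed value reached the untreated range, here from above (1.61 ± 0.52, adjusted p = 0.107). Efnb1 differed by -1.07 ± 0.71 with 3 of 4 pairs lower, and Efna2 crossed the ceiling in both groups. Of 5 tested ephrins, 1 fell and 0 rose, against 3.02% and 3.91% of all genes, with a median difference of -1.07.

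Of the Eph receptors 0 of 6 tested passed, against 6.94% of all genes. At an unadjusted p under 0.05, 0 were higher and 2 lower, against 10.5% and 11.5% of all genes. All 6 differences were negative, with a median of -1.17, while 5831 of all 10843 genes tested had a negative difference. Epha3, however, turned to 0.45 when its probe set of widest spread was used. Ephb4, the main receptor of ephrin B2, was 9.45, 10.26, 10.29 and 10.39 on untreated arrays and 8.25, 9.70, 10.03 and 8.68 on inflamed arrays. It was lower in all 4 pairs without passing (-0.93 ± 0.29, adjusted p = 0.0987). Inflamed arrays 1 and 4 were the lowest, and Pecam1 was also lowest there, at 9.05 and 9.04 against 10.36 and 10.65 on inflamed arrays 2 and 3. Among inflamed arrays, Lyve1 and Flt4 were lowest on array 1 (11.51 and 11.53) but highest on array 4 (12.17 and 12.27). A link of Ephb4 to marker levels was not tested. Ephb1 was 7.98, 8.12, 7.14 and 7.13 on untreated and 6.12, 6.18, 6.58 and 6.47 on inflamed arrays. Its groups did not overlap, but it did not pass (-1.25 ± 0.51, adjusted p = 0.188). Epha4, a receptor that binds ephrins of both classes, was lower in all 4 pairs (-1.49 ± 0.77) and above the ceiling on 3 of 4 untreated and 2 of 4 inflamed arrays. Ephb3, Epha2 and Epha3 differed by -1.40 ± 0.93, -1.09 ± 1.04 and -0.86 ± 0.86, each with pairs in both directions. For Epha3, the other 3 probe sets gave differences of 0.05 to 0.45.

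Both tested netrins were lower in all 4 pairs, as were 15.5% of all genes, and Ntn1 passed. Of all genes 3.02% passed as lower. Netrin 1, a secreted laminin-like guidance cue, had log2 signals of 9.52, 11.34, 10.75 and 10.89 on untreated and 8.12, 9.47, 9.50 and 10.03 on inflamed arrays. Untreated array 1 lay under inflamed array 4, so the groups overlapped, while the 4 differences within pairs lay between -1.87 and -0.87. Ntn1 fell by 1.35 (SE 0.24, adjusted p = 0.0104). Its second probe set also passed when fitted singly, with a larger difference of -3.35 ± 0.66 (adjusted p = 0.0191). The mean of both probe sets gave -2.35 (adjusted p = 0.00371). The call ended without pair 2 or 3 (adjusted p = 0.0552 and 0.0601) and without the pair block (adjusted p = 0.105), a fit in which the 4 inflamed arrays were set against the 4 untreated ones regardless of day. With the pair as a random block, at an estimated correlation, it ended too (adjusted p = 0.0681).

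Ntn4, a basement membrane netrin known to act on endothelium, was 9.72, 9.20, 8.80 and 9.06 on untreated arrays and 7.68, 6.81, 7.86 and 8.50 on inflamed arrays. Its groups did not overlap, and it missed the threshold (-1.48 ± 0.41, adjusted p = 0.0617). With the pair as a random block or with the mean of its probe sets it passed (adjusted p = 0.0364 and 0.0199). The remaining 4 netrin genes were under the filter, and of these Ntn5 was above the ceiling on 3 of 4 untreated and 0 of 4 inflamed arrays.

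The netrin receptor gene Unc5b differed little. It was 9.74, 10.08, 9.68 and 10.25 on untreated arrays and 10.10, 9.94, 10.11 and 10.32 on inflamed arrays, a difference of 0.18 ± 0.21 with an interval from -0.30 to 0.66. Its dimmer probe set gave -1.30 ± 0.82, with 3 of 4 inflamed arrays above the ceiling, so the probe sets disagreed in sign. Unc5c was above the ceiling on 3 of 4 untreated and 2 of 4 inflamed arrays. Of the 2 tested Unc5 genes 0 passed, against 6.94% of all genes. At an unadjusted p under 0.05, 0 were higher and 0 lower, against 10.5% and 11.5% of all genes.

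Slits and Robos gave 0 genes that passed, against 6.94% of all genes. At an unadjusted p under 0.05, 0 were higher and 0 lower, against 10.5% and 11.5% of all genes. Robo4, the Robo of endothelial cells, was 6.79, 8.79, 8.46 and 8.24 on untreated and 6.17, 6.82, 7.61 and 7.88 on inflamed arrays. It was lower in all 4 pairs, with overlapping groups (-0.95 ± 0.45, adjusted p = 0.257). Robo1 differed by 0.79 ± 0.72, with 2 of 4 pairs higher. The ligand gene Slit2 was above the ceiling on 1 of 4 untreated and 3 of 4 inflamed arrays, at 4.82, 2.00, 1.12 and 2.18 against 6.73, 5.89, 3.37 and 0.29. Slit3 and Slit1 differed by -0.36 ± 1.03 and 0.02 ± 0.73.

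The 28 members outside the test were dim. None of them had more than 5 of 8 arrays above the ceiling, and 6 (Epha6, Ephb6, Robo2, Unc5cl, Unc5d and Sema4g) had 0. The others were Sema3b, Sema3g, Sema4a, Sema4f, Sema5a, Sema6c, Plxna3, Plxnc1, Epha1, Epha10, Epha5, Epha7, Epha8, Efna3, Efna4, Efnb3, Ntn3, Ntn5, Ntng1, Ntng2, Robo3 and Unc5a. The brightest of the 4 Sema5a probe sets was above the ceiling on 3 of 4 untreated and 0 of 4 inflamed arrays, and another on 0 of 4 untreated and 2 of 4 inflamed arrays.

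Several genes were read by more than 1 probe set past the filter, so that their differences could be compared between probe sets. Of 18 such genes, 13 had the same sign on all of them. The 5 that did not were Efnb1, Epha3, Plxna2, Sema4b and Unc5b, and 0 of these had passed. Why their probe sets disagreed was not tested. Fitted singly, 2 of the 69 member probe sets past the filter passed as higher and 6 as lower, against 3.18% and 2.42% of all 22519 probe sets, or 5.6% in both directions. The 2 belonged to Sema3a and Sema7a, and the 6 to Efnb2 (3), Ntn1 (2) and Sema6a (1).

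**Figure D3:**
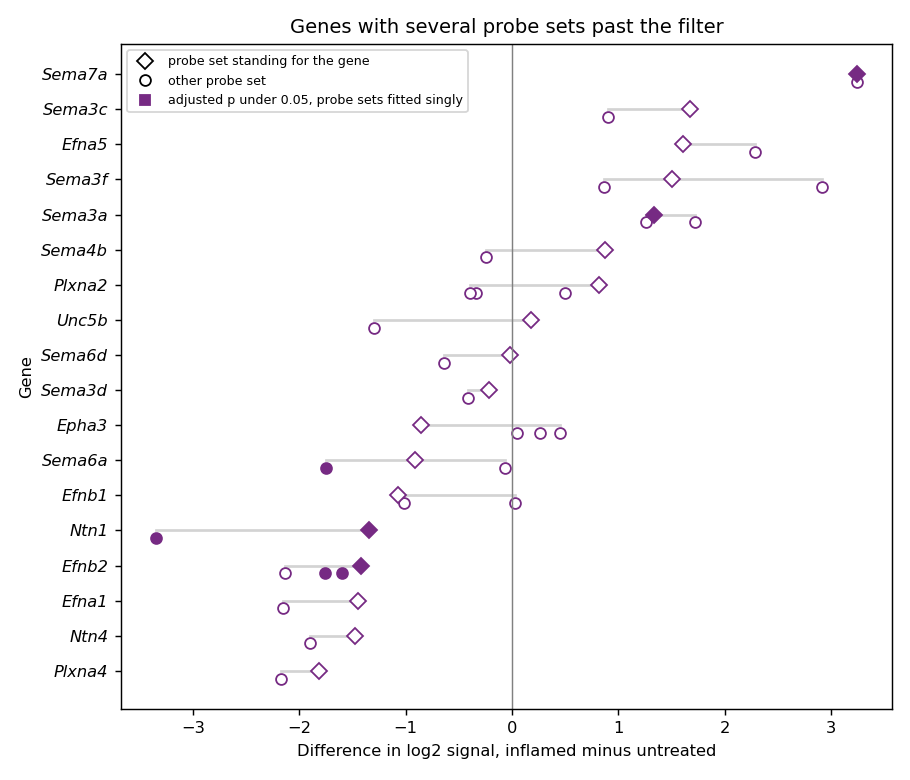
Difference in log2 signal, inflamed minus untreated, of each probe set for the 18 genes with more than 1 probe set past the filter. Diamonds mark the probe set that stands for the gene, and filled symbols an adjusted p under 0.05. Probe sets of Ntn1 lie at -1.35 and -3.35 and those of Unc5b on both sides of 0. The second Sema7a probe set was under the ceiling on 3 of 4 untreated arrays.

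The differences were also computed with each array centred on its 9 pan-endothelial markers, a scaling chosen after seeing the data. On the deposited scale these markers themselves had differences from -2.18 to 0.50. The centring moved the median difference of all genes from -0.09 to 0.71. On this scale 0 members passed as lower and 8 as higher (against 1.41% and 16.8% of all genes, 18.2% together), with 1 and 13 at an unadjusted p under 0.05. Efnb2 differed by -0.62 ± 0.28 (adjusted p = 0.145) and Ntn1 by -0.55 ± 0.28 (adjusted p = 0.201), so both calls ended while the sign stayed. Sema3a rose by 2.13 ± 0.25 and Sema7a by 4.05 ± 0.72 (adjusted p = 0.000293 and 0.00337). The others of the 8 were Sema3c, Sema4c, Sema5b, Efna5, Plxna2 and Unc5b. Sema4c, at 0.30 ± 0.29 on the deposited scale, was 1.10 ± 0.31 here.

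**Figure D4:**
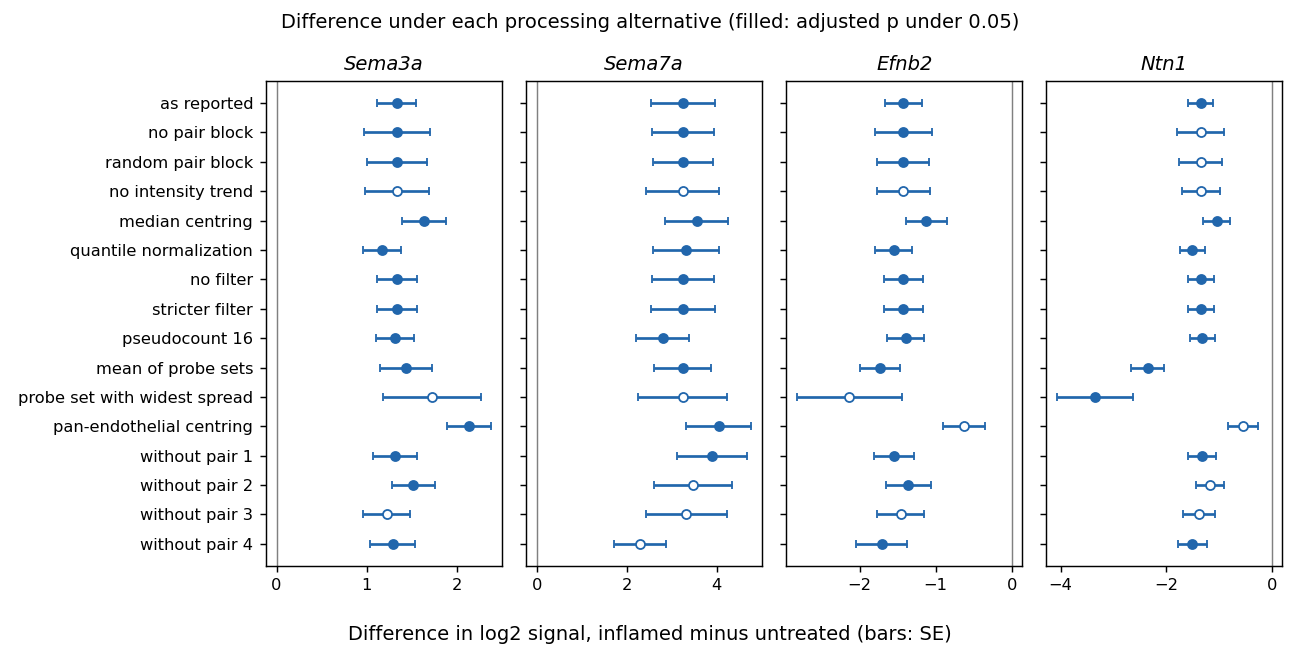
Difference in log2 signal, inflamed minus untreated, with its SE, for the 4 members that passed, as reported and under 15 other processing settings. Filled points have an adjusted p under 0.05. No point crosses 0, and without the intensity trend none of the 4 genes is filled.

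The number of calls rested on the intensity trend of the limma fit, in which genes of like brightness share an estimate of spread. Without it 0 members passed, with 4 higher and 8 lower at an unadjusted p under 0.05, and 0.867% and 0.433% of all genes passed, 1.3% in both directions. The adjusted p of Sema3a, Sema7a, Efnb2 and Ntn1 was then 0.143, 0.131, 0.123 and 0.144. Without pair 3, too, 0 members passed, with 3 higher and 9 lower at an unadjusted p under 0.05, while 1.78% of all genes passed as higher and 0.944% as lower (2.72% in all).

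Co-receptors and effectors that work with these families were read from a list of 94 genes, of which 82 were tested. Higher were 1 of 82 (1.22%, against 3.91% of all genes) and lower 6 of 82 (7.32%, against 3.02%), with a median difference of -0.17. Nrp2, the neuropilin that binds Sema3f and lymphangiogenic growth factors, was 11.23, 11.26, 10.78 and 10.74 on untreated arrays and 9.45, 8.90, 9.74 and 9.05 on inflamed arrays. The groups lay well apart (adjusted p = 0.0045), and under pan-endothelial centring Nrp2 still passed as lower (-0.92 ± 0.26, adjusted p = 0.0337). Nrp1, the neuropilin of Sema3a, was 6.59, 5.74, 4.02 and 0.20 on untreated and 6.81, 4.79, 5.03 and 4.40 on inflamed arrays, with no clear separation (1.12 ± 0.92, adjusted p = 0.531). Untreated array 4 lay under the ceiling, and without pair 4 the difference was 0.096. Neo1, neogenin, a receptor of netrins and repulsive guidance molecules, was 11.37, 10.59, 10.00 and 9.46 on untreated and 10.21, 7.09, 7.88 and 8.91 on inflamed arrays. It fell by 1.84 (SE 0.44, adjusted p = 0.0378). The call ended without the pair block, with a random block and with median centring (adjusted p = 0.101, 0.0699 and 0.0738), and without pair 1, 2 or 3. Neo1 was also not among the genes that passed with the mean of probe sets, the probe set of widest spread or pan-endothelial centring. Dcc, the other classical netrin receptor, was above the ceiling on 2 of 4 untreated and 4 of 4 inflamed arrays and differed by 0.89 ± 0.90.

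Effectors inside the cell made up the other 5. Ablim3, an actin-binding protein, was 8.64, 10.36, 9.94 and 10.14 on untreated arrays and 6.01, 6.20, 7.01 and 5.61 on inflamed arrays. It fell by 3.56 (SE 0.45, adjusted p = 0.00216), the largest difference among the partners that passed. Dpysl2, a collapsin response mediator that acts downstream of Sema3a in neurons, fell by 0.87 (SE 0.18, adjusted p = 0.0194), from 11.61 ± 0.07 to 10.74 ± 0.46 (SD, n = 4). Mical2, an enzyme that oxidises actin, and Srgap3, a GTPase-activating protein that binds Robos, fell by 2.63 and 2.83 (adjusted p = 0.037 and 0.0452). For both, inflamed array 1 lay under the ceiling, at 2.81 and 1.71. Cfl1, the actin-severing protein cofilin, rose by 0.42 ± 0.11 (adjusted p = 0.0449). Mical2, Srgap3 and Cfl1 did not pass without the pair block (adjusted p = 0.0973, 0.101 and 0.168), with a random block (adjusted p = 0.0658, 0.069 and 0.119) or without any 1 pair. Dpysl2 did not pass with median centring or without pair 1 or 3 (adjusted p = 0.0823, 0.0762 and 0.0815). Of the 7 partners that passed, Ablim3 alone did so without the intensity trend. With the probe set of widest spread only Ablim3 and Mical2 of the 7 passed. With pan-endothelial centring only Ablim3, Cfl1 and Nrp2 of them did, and with the mean of probe sets all but Mical2 and Neo1.

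Ligands and receptors known to bind each other can be set side by side only by their own differences, since signals of different probe sets share no scale. For Efnb2 and Ephb4 these were -1.42 and -0.93, for Sema4d and Plxnb1 -1.37 and -1.56 (Plxnb1 with 2 of 4 inflamed arrays under the ceiling), and for Sema3f and Nrp2 1.50 and -1.72. For Ntn1 and Neo1 they were -1.35 and -1.84, with 0.18 for Unc5b. Sema3a, at 1.33, stood beside the 1.12 of Nrp1, a value that rested on pair 4. Of these 11 genes, Efnb2, Nrp2, Ntn1, Neo1 and Sema3a passed in the reported fit, each with the limits given above.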

How the data were processed

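RNA from each pool of sorted cells was copied and linearly amplified as single-stranded cDNA, labelled with biotin and hybridised to 1 array, per the labels' protocols. The values used are the authors' deposited signal intensity per probe set, on a linear scale and made with MAS5 per the submitters' processing notes. The software version and scaling target: not given in the sources used here. Leaving aside 64 controls, 45037 probe sets remained, of which 34945 name 1 gene in GEO's platform annotation. Since median log2 signals of the arrays lay within 0.468 of each other, the authors' scaling was kept. Mean signals ran from 126.2 to 160.4.

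A probe set entered the test if its log2 signal, averaged over arrays, reached 3.30, the median over probe sets. The brightest one stood for each of 10843 genes. The two-sided test was that of limma 3.58.1 (R 4.3.3), using lmFit and eBayes with trend, and the pair was a fixed block. Residual degrees of freedom were 3 and the median prior ones 6.27. SEs and 95% intervals are moderated. The pairs rest on the shared sorting and extraction days that the submitters state. Across genes, paired arrays' deviations from their group means correlated at 0.16, -0.001, 0.082 and 0.032. Samples are pools, so p-values refer to pools, and 4 arrays a group limit the precision. The background ceiling is the 95th percentile of 27 bacterial control probe sets outside the hybridisation mix. The fit was tested on simulated data.

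Members that passed in the fit or under any alternative are named with values on all arrays. Members bright on all 8 arrays, under the ceiling on all 8 or with disagreeing probe sets are named too, as are partners that passed, Nrp1, Nrp2, Pecam1, Pdpn, Ptprc, Prox1, Lyve1 and Flt4. Other members were named after their values were seen. The members, the lists and the tests were chosen with earlier results of these data known. Alternatives covered the block, trend, scaling, filter, pseudocount (16), choice of probe set and leaving out each pair. Centring on pan-endothelial markers was added after seeing the data.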

Additional observations from a re-analysis of the deposited data

Results flagged for a closer look

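In 8 of the 82 groups checked (41 members, both conditions), 1 array stood far from the other 3 by its gap relative to the group's range. Chance gives about 1 in 20 such groups. Efnb2 stood at 8.21 on inflamed array 1, with the others at 9.05 to 9.16. Ephb4 stood at 9.45 on untreated array 1, with the others at 10.26 to 10.39, and Plxnd1 at 6.08 on inflamed array 1, with the others at 6.65 to 6.73. Sema5b stood at 7.52 on inflamed array 1, with the others at 4.74 to 5.00. Plxnb2 stood at 0.12 on untreated array 2, with the others at 4.43 to 4.92. Epha4 stood at 3.00 on untreated array 3, with the others at 5.05 to 5.40, and Slit1 at 1.80 on inflamed array 3, with the others at 4.55 to 4.92. Plxna4os1 stood at 6.33 on inflamed array 2, with the others at 3.14 to 3.44.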

How the results depend on the processing

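Counts below are axon guidance genes higher and lower, then partners, then all genes, reported as 2 and 2, 1 and 6, and 424 and 328. Without the replicate block for the pair they were 2 and 1, 0 and 3, and 384 and 301. With the pair as a random block they were 2 and 2, 0 and 3, and 434 and 383, with Ntn4 among the lower members in place of Ntn1. Without the intensity trend they were 0 and 0, 0 and 1, and 94 and 47. Median centring, which moved the median difference of all genes to 0.22, gave 2 and 2, 3 and 3, and 719 and 227. Pan-endothelial centring gave 8 and 0, 15 and 2, and 1825 and 153. The mean of probe sets gave 2 and 4, 1 and 4, and 394 and 355, and the probe set of widest spread 0 and 1, 0 and 2, and 310 and 233. No filter and quantile normalization each gave 0 higher partners. Leaving out 1 pair, with the brightest probe set of each gene chosen anew, gave 0 to 2 higher and 0 to 2 lower members, 0 and 2 to 4 partners, and 194 to 293 and 103 to 185 genes, lowest without pair 3. Sema3a, Sema7a, Efnb2 and Ntn1 kept their direction under all 15 alternatives and passed in 12, 10, 11 and 9 of them.

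Of 773 values over 54 genes, 33 turned sign, in 15 genes, and their cause was not tested. With pan-endothelial centring Slit3 was 0.45, Efna2 0.52, Plxna1 0.72, Sema3d 0.58, Sema6d 0.78, Pecam1 0.076, Lyve1 0.62 and Flt4 0.43. With median centring Efna2 was 0.02, Plxna1 0.22, Sema3d 0.087, Sema6d 0.29 and Lyve1 0.12, and with quantile normalization Plxna1 was 0.11 and Sema6d 0.10. The mean of probe sets gave Unc5b -0.56, Plxna1 0.13 and Sema6d 0.60, and the widest-spread probe set Epha3 0.45, Unc5b -1.30 and Sema4b -0.25. A pseudocount of 16 gave Slit3 0.053. Leaving out 1 pair in turn gave -0.189 to 0.148 for Slit1, -1.49 to 0.713 for Slit3, -0.015 to 1.515 for Unc5c, -1.03 to 0.506 for Efna2, -0.989 to 0.792 for Plxna4os1, -0.412 to 0.134 for Sema3d, -0.757 to 1.995 for Sema4b, -0.111 to 0.186 for Sema6d and -0.233 to 0.73 for Nrp1. With 4 arrays a group, members near the background ceiling had the widest intervals.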
